A study of Mus musculus with 4 samples.

Results

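The 10 genes described here are the small proline-rich (Sprr) genes Sprr1a, Sprr1b, Sprr2b, Sprr2d, Sprr2e, Sprr2f, Sprr2g, Sprr2h, Sprr3 and Sprr4. They were taken by name: every non-control spot whose gene name in the array files was one of these counted as a member, which gave 10 probes, 1 per gene, among 55681 probes with 34797 gene names. Gene expression was measured on one-colour arrays in whole ears of 4 mice, 48 h after treatment of the ear with the contact allergen 2,4-dinitrofluorobenzene (DNFB). The 2 mutant mice (K14Cre RelAfl/fl) carried a floxed RelA gene together with Cre under the promoter of keratin 14, a keratin of basal cells in the epidermis and in hair follicles. The 2 wild-type mice (RelAfl/fl) carried the floxed gene without the recombinase, so that an effect of carrying Cre cannot be told apart from one of the deletion. RelA, or p65, is a subunit of NF-kB, a transcription factor of inflammation. The labels give no age, sex or strain, and all 4 ears had received DNFB, so that every value describes treated skin.

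Sprr proteins are short, proline-rich precursors of the cornified envelope, the protein shell that replaces the plasma membrane of a dying keratinocyte. Transglutaminases cross-link them to loricrin, involucrin and other precursors. In healthy skin most of them are scarce, and they are known as genes that squamous epithelia switch on under irritation, wounding and inflammation. They lie side by side in the epidermal differentiation complex. In mouse build mm9, to which the files map the probes, those of the 10 genes lie on chromosome 3 within 182595 bases, from 92121660 at Sprr2b to 92304254 at Sprr4, in the order Sprr2b, Sprr2d, Sprr2e, Sprr2f, Sprr2g, Sprr2h, Sprr1b, Sprr3, Sprr1a and Sprr4. The accessions of all 10 matched the same symbol in RefSeq, which lists Sprr2g as a transcribed pseudogene and the other 9 as protein coding.

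The Sprr2 genes are close copies of each other, so the probes that tell them apart are shown first. Capitals mark the longest run of letters that a probe shares with any other Sprr probe on the array.
Sprr2b probe: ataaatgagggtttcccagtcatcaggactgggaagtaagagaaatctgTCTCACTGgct
Sprr2d probe: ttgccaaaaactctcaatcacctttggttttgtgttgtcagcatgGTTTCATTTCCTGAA
Sprr2e probe: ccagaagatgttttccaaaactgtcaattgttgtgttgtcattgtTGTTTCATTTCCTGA
Sprr2f probe: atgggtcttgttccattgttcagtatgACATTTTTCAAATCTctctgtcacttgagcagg
Sprr2h probe: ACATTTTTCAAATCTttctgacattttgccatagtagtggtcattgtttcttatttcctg

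The Sprr2b probe lies at 92121660 to 92121719 and that of Sprr2d at 92144721 to 92144780, both on the plus strand. Those of Sprr2e (from 92157288), Sprr2f (92170259), Sprr2g (92179092) and Sprr2h (92191160) follow on the same strand. The probes of Sprr1b (from 92240731), Sprr3 (92260903), Sprr1a (92287955) and Sprr4 (92304195) are on the minus strand. Over the 45 pairs of member probes the aligned identity was between 25% and 63.3%, with a median of 43.3%, and no shared run was longer than 15 of the 60 bases. The probe of Sprr2b shared at most 8 bases in a run with any other Sprr probe. No transcript sequences were at hand, so that the match of each probe to the transcripts of the other copies was not tested.

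A level below is the log2 of a probe's processed intensity relative to the 75th percentile of its array, so that 0 is the intensity at that percentile. Levels of different probes are not comparable with each other, since probes bind with different strength. The test took in the 33664 probes that the scanner software called well above background in both mice of either group. Of the members 9 were tested, and these were well above background on 4 of 4 arrays. Sprr3, a gene of the oesophagus and other internal squamous epithelia, was well above background on 0 arrays and has no fold change. Across the arrays no spot was saturated, and between 61.21% and 64.27% of spots were well above background. The number of arrays limits the precision of every value.

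All 9 tested genes had a higher mean in the mutants, and none passed the test across all probes. Limma's moderated test called 0 of the 9 at an adjusted p under 0.05, where it called 7 of 33664 probes (0.0208%; 0.0119% higher and 0.00891% lower in the mutants). With an unadjusted p under 0.05, 2 of the 9 were higher in the mutants (Sprr2b and Sprr2d) and 0 lower, where 3% of all probes were higher and 3.56% lower (6.56% together). This count of 2 was 5 with the replicate number as a block. With that block 2031 of 33664 probes had such a p in either direction, against 2207 without it. A log2 fold change above 0 was found for 52.6% of all probes, and one of at least 0.5, as in the same 2 genes, for 3.5%. The median log2 fold change of the 9 genes was 0.42, beside 0.01 over all probes tested. In 3 of 9 genes (Sprr2b, Sprr2d and Sprr2h) both mutant values were above both wild-type values, as in 18.7% of all probes. Both mutants were below both wild types in 0 of 9 genes and in 17.6% of all probes. With 2 samples against 2, the smallest two-sided p that an exact permutation test can give is 0.333, and the labels do not say whether the numbered mice share a litter or cage.

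**Figure D1:**
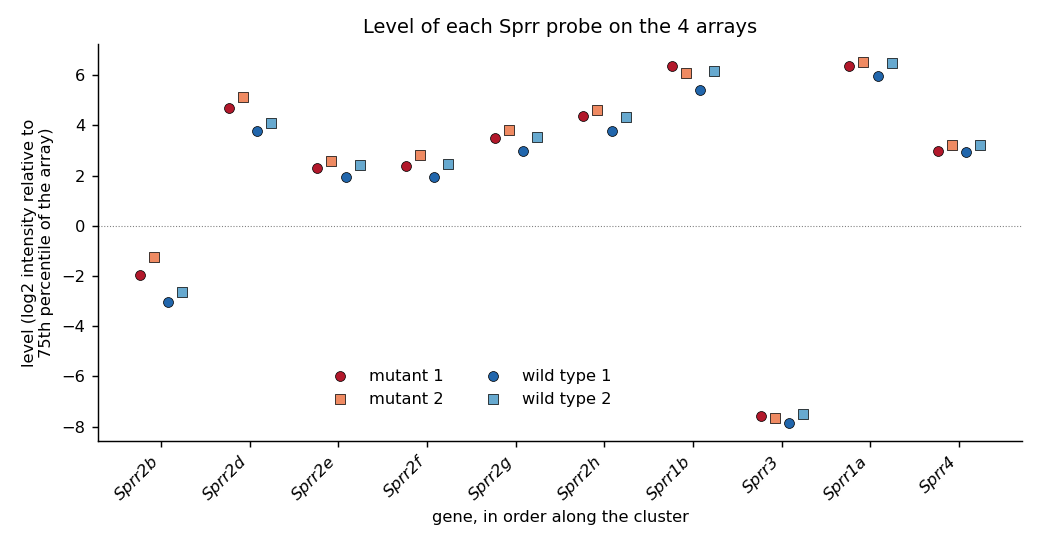
Level of each of the 10 Sprr probes on the 4 arrays (y axis, log2 scale, with 0 at the 75th percentile of the array), with genes on the x axis in order along the cluster and 1 point per mouse. Wild type 1 is the lowest point in each of the 9 genes above background, Sprr3 lies near -7.6 on all arrays, and heights of different genes are not comparable.

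Sprr2b encodes a cornified envelope precursor of the Sprr2 group. Its level was -1.96 and -1.24 in mutant mice 1 and 2, against -3.02 and -2.63 in wild-type mice 1 and 2. These are processed intensities of 159 and 250 in the mutants and of 81.7 and 101 in the wild types. The groups did not overlap, and the gap between the lower mutant and the higher wild type was 0.67 on the log2 scale. The log2 fold change was 1.23 ± 0.29 (SE, n = 2 mice per group), or 2.34-fold (limma adjusted p = 0.593, unadjusted p = 0.0106). This was the dimmest of the tested members. With another background correction (normexp) its log2 fold change was 0.875, below the 0.98 of Sprr2d under the same correction.

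Sprr2d, the next gene along the chromosome and in mouse a target of the antioxidant factor Nrf2, showed the same order of samples. Its level was 4.71 and 5.15 in mutants 1 and 2, against 3.78 and 4.08 in wild types 1 and 2. The lower mutant was 0.62 above the higher wild type. Its log2 fold change was 0.998 ± 0.21 (SE, n = 2 mice per group), or 2.00-fold (limma adjusted p = 0.561, unadjusted p = 0.0063). In both genes mutant 2 was the highest sample, 0.72 above mutant 1 at Sprr2b and 0.45 above it at Sprr2d. The 2 wild types were 0.40 apart at Sprr2b and 0.31 apart at Sprr2d.

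The next 4 Sprr2 genes had smaller differences. Sprr2e stood at 2.32 and 2.59 in mutants 1 and 2, against 1.96 and 2.42 in wild types 1 and 2. Mutant 1 lay below wild type 2, so the groups overlapped, and the log2 fold change was 0.27 ± 0.21 (SE). Sprr2f, which in mouse uterus responds to oestrogen, stood at 2.39 and 2.80 in the mutants, against 1.93 and 2.46 in the wild types. It overlapped in the same way, with a log2 fold change of 0.40 ± 0.25 (SE).

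The pseudogene Sprr2g stood at 3.52 and 3.83 in mutants 1 and 2, against 2.97 and 3.53 in wild types 1 and 2. Mutant 1 and wild type 2 were nearly level there, and the log2 fold change was 0.42 ± 0.24 (SE). Sprr2h, another Nrf2 target in mouse, stood at 4.37 and 4.64 in the mutants, against 3.77 and 4.34 in the wild types. Its groups were separated by only 0.03, and its log2 fold change was 0.45 ± 0.23 (SE). The adjusted p of these 4 genes lay between 0.836 and 0.876. The spot of Sprr2h lies in a corner of the array of mutant 2 in which 14.7% of 1160 bright spots were at least 2-fold dimmer than the median of the other arrays, against 0.51% of 22803 elsewhere. Among the 75 bright spots within 8 rows and columns of the Sprr2h spot, 0 were that dim. Without this corner Sprr2h had a log2 fold change of 0.32, from mutant 1 alone.

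Sprr1b and Sprr1a, both markers of squamous differentiation, lie beyond the Sprr2 genes. Sprr1b stood at 6.37 and 6.09 in mutants 1 and 2, against 5.42 and 6.16 in wild types 1 and 2. It was the only tested member with its highest value in mutant 1, and its wild types were 0.75 apart, the widest gap of the 9. The log2 fold change was 0.44 ± 0.28 (SE). Sprr1a, which is also induced in injured neurons, stood at 6.36 and 6.53 in the mutants, against 5.96 and 6.49 in the wild types, with a log2 fold change of 0.22 ± 0.21 (SE).

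Sprr4, at the far end of the cluster, had almost the same mean in both groups. It stood at 2.99 and 3.23 in mutants 1 and 2, against 2.95 and 3.20 in wild types 1 and 2, and its log2 fold change was 0.03 ± 0.16 (SE). Replicate 2 was 0.23 above replicate 1 in the mutants and 0.26 above it in the wild types, more than the groups differed. The adjusted p of Sprr1b, Sprr1a and Sprr4 lay between 0.866 and 0.981.

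**Figure D2:**
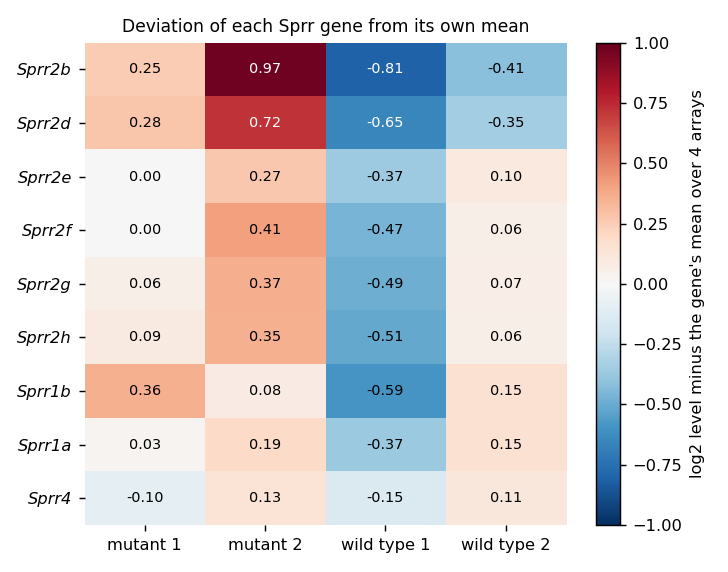
Log2 level of each of the 9 tested Sprr genes (rows, in order along the cluster) minus the gene's own mean over the 4 arrays (columns), red above and blue below that mean. Wild type 1 is negative in all 9 rows, and wild type 2 is negative in the rows of Sprr2b and Sprr2d and positive in the other 7.

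Most of the difference at the other 7 genes rested on wild type 1. Wild type 1 was the lowest of the 4 arrays in 9 of 9 genes, where it was the lowest at 32.9% of all probes, and mutant 2 was the highest in 8 of 9. The 2 wild types differed by 0.26 to 0.75 at the 9 genes, beside a median absolute difference of 0.16 over all probes. Wild type 2 was at least 0.3 above wild type 1 in 8 of the 9 genes and in 11.5% of all probes. Without wild type 1 the median log2 fold change of the 9 genes was 0.14 in place of 0.42. It was 0.70 without wild type 2, 0.58 without mutant 1 and 0.27 without mutant 2. Sprr2b then had 1.03 and Sprr2d 0.84 without wild type 1, while Sprr2e had 0.03, Sprr1b 0.07 and Sprr1a -0.04. Over the 4 cases with 1 array left out, Sprr2b ranged from 0.86 to 1.59 and Sprr2d from 0.78 to 1.22. With 1 array left out the lone sample of its group is assumed to vary like the others.

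**Figure D3:**
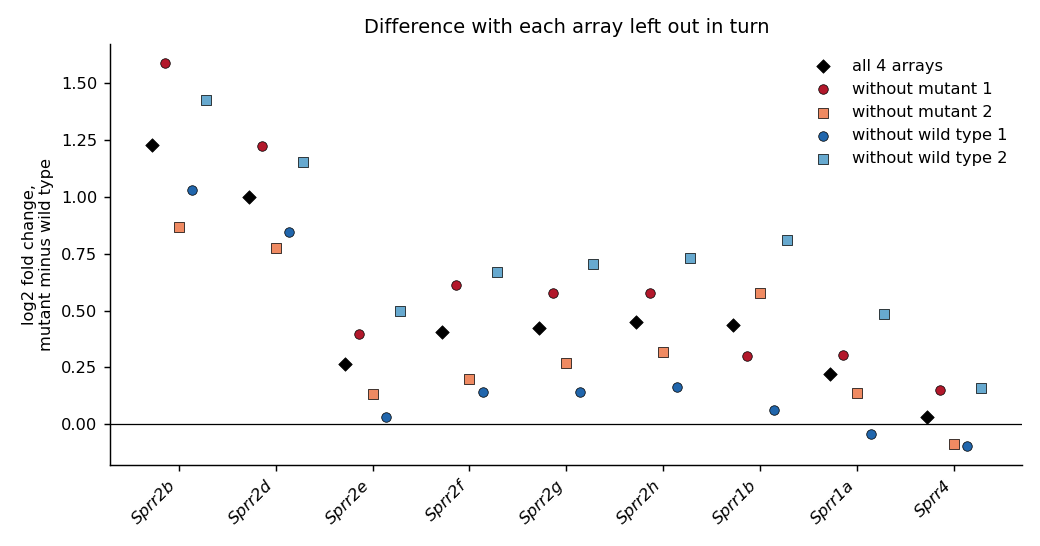
Log2 fold change of each of the 9 tested Sprr genes (y axis, mutant minus wild type) with all 4 arrays (diamond) and with each array left out in turn. The values of Sprr2b and Sprr2d stay above 0.77, and those of the other 7 fall to between -0.10 and 0.16 without wild type 1.

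Because wild type 1 was low across the family, each gene was also set against the mean of the other 8 on the same array. This was done after the values had been seen. Only the change of such a relative value between arrays has a meaning, not its size. Sprr2b was then 0.82 higher in the mutants and Sprr2d 0.57 higher, with no overlap between the groups. Sprr4 was 0.52 lower, Sprr1a 0.31 lower and Sprr2e 0.26 lower, again with no overlap. Sprr2h and Sprr1b overlapped, with -0.05 and -0.06. Sprr2f was 0.10 lower and Sprr2g 0.08 lower, without overlap but by narrow margins. The nearest samples, mutant 2 and wild type 1, stood at -1.046 and -1.042 for Sprr2f and at 0.104 and 0.128 for Sprr2g. The exact permutation p was 0.333 for 7 of the 9, the smallest that it can be, 0.667 for Sprr2h and 1 for Sprr1b. The share of all probes without overlap was not computed for relative values, so the 7 cannot be set beside one. In these relative values a gain of some genes lowers the others by construction.

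The array holds 5 other Sprr names, which show whether the pattern went beyond the 10 genes. Sprr2a1 was well above background on 0 arrays. Sprr2i had a log2 fold change of 0.28 ± 0.14 and the pseudogene Sprr2j-ps 0.48 ± 0.11. Sprr2k had 0.69 ± 0.14 (0.24 with normexp background correction) and was well above background on 3 arrays, and its spot lies in the corner named above. In these 3 both mutants were above both wild types, where this was so at 18.7% of all probes. Wild type 2 was the lowest sample of Sprr2i and Sprr2k, unlike in the 9 genes. Limma's adjusted p lay between 0.549 and 0.821.

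Sprr2a2 had 3 probes that disagreed. They gave 0.98 ± 0.21, 0.59 ± 0.18 and 0.01 ± 0.11 (the last below 0 with quantile normalization), in order along the chromosome. At the first probe the level was -0.70 and -0.24 in mutants 1 and 2, against -1.62 and -1.30 in wild types 1 and 2. At the third it was 7.71 and 7.72 in the mutants, against 7.68 and 7.73 in the wild types. The letters of the first probe, which carries the name Sprr2a2, match the start of Sprr2b as RefSeq gives it (from 27 bases before to 32 bases after) at 59 of 60 bases, so that this probe and that of Sprr2b may not be independent. It is shown with the run it shares with another Sprr probe in capitals.
Sprr2a2 first probe: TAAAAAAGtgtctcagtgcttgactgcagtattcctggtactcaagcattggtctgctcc

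**Figure D4:**
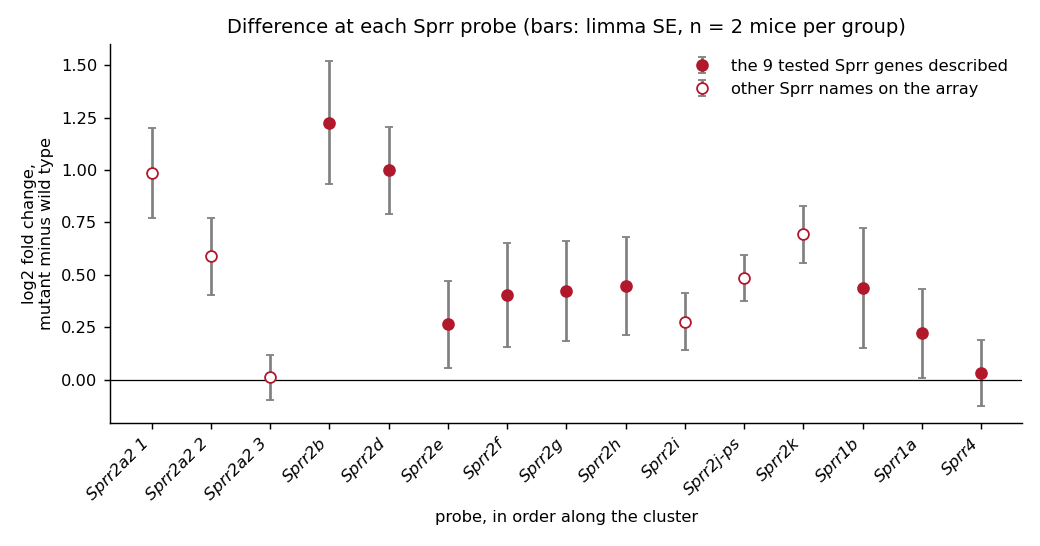
Log2 fold change, mutant minus wild type (y axis), of the 15 tested Sprr probes in order along the cluster, with bars of 1 limma SE. Filled points are the 9 genes described and open points other Sprr names, and the points run from 1.23 at Sprr2b to 0.03 at Sprr4 among the filled ones.

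Sprr2d and Sprr2e are neighbours whose promoters are the most alike among the members, so these are shown with those of Sprr2b and Sprr1a. The windows run from 250 bases before to 50 bases after the start of the gene, were taken from RefSeq (GRCm38.p6) and were available for 9 of the 10 members. Capitals mark TATAAA (the TATA box) and TGANTCA (the site of AP-1, the Fos and Jun factors), searched on both strands.
Sprr2b promoter, chr3:92316455-92316754, plus strand: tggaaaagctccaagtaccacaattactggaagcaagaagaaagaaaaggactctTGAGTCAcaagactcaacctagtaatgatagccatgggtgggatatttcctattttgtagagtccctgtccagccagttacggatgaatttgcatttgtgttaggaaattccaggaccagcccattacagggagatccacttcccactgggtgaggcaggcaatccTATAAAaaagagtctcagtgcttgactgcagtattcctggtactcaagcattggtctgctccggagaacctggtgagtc
Sprr2d promoter, chr3:92338890-92339189, plus strand: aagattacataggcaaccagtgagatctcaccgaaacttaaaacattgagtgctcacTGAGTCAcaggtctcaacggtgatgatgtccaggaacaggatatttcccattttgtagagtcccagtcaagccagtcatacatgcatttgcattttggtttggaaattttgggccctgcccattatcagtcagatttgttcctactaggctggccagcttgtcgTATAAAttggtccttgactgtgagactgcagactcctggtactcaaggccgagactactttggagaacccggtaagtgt
Sprr2e promoter, chr3:92351893-92352192, plus strand: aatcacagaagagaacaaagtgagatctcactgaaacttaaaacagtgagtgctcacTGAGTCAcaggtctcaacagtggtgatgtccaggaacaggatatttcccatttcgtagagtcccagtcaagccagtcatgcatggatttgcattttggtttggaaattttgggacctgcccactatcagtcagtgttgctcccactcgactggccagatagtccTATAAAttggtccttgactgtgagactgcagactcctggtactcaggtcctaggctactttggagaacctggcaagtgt
Sprr1a promoter, chr3:92485832-92486131, minus strand: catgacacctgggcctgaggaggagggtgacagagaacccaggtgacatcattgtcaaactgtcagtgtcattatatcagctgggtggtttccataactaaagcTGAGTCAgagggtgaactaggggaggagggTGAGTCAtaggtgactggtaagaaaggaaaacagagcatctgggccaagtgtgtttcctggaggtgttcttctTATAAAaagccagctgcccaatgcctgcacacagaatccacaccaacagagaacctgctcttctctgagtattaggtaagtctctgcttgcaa

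The promoters of Sprr2d and Sprr2e were identical at 88.0% of aligned bases and both have TGANTCA from base -193 to base -187 of the start. The promoter of Sprr2b was identical to that of Sprr2d at 64.3%. Relative to Sprr2e on the same array, Sprr2d stood at 2.38 and 2.56 in mutants 1 and 2, against 1.82 and 1.66 in wild types 1 and 2. The difference between the groups was 0.73 on the log2 scale, with no overlap (exact permutation p = 0.333, the smallest possible), for a pair that was chosen after its values were seen.

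TGANTCA was in 7 of 9 member promoters, where 7.81% of 32841 mouse promoters of this length held it, and TATAAA was in 8 of 9, where 13.62% held it. The octamer ATGCAAAT was in 5 of 9, all of the Sprr2 group, where 1.74% held it. The antioxidant response element, searched as TGACNNNGC, was in 2 of 9 (12.4% of all), and in Sprr1a it overlaps the first TGANTCA. A consensus site of NF-kB was in 0 of 9 (4.51% of all). The Sprr2 promoters are copies of each other and do not count as separate cases. The search covers only these letters in these windows.

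Genes that work with the Sprr proteins, or are known to switch them on, were counted from lists. Of the other cornified envelope precursors, 38 probes of 33 genes were tested and 0 passed limma's adjusted threshold. At an unadjusted p under 0.05, 1 was higher and 2 lower, where 3% of all probes were higher and 3.56% lower. The median log2 fold change of these precursors was 0.04 over genes, with 24 of 38 probes above 0, against 52.6% of all probes. The largest differences were those of Prr9 (1.99 ± 0.87), Rptn, which encodes repetin (1.16 ± 0.48), Flg2, a filaggrin-like gene (-0.75 ± 0.22), and Lce1m (-0.57 ± 0.20). Prr9 stood at 2.52 and 4.97 in mutants 1 and 2, against 2.21 and 1.29 in wild types 1 and 2, and had 0.77 without mutant 2. Rptn had 0.56 without mutant 2, and without wild type 1 Flg2 had -0.46 and Lce1m -0.32. Loricrin (Lor), the most abundant envelope protein, had -0.13 ± 0.11 and involucrin (Ivl) -0.17 ± 0.24. Lce3a (0.55 ± 0.16), Lce3f (0.50 ± 0.23), Lce3c (0.44 ± 0.25) and Lce3b (0.40 ± 0.24) were higher in the mutants. These Lce3 genes were lowest in wild type 1, like the Sprr genes. In the whole list 14 of the 38 probes were lower in the mutants. Wild type 1 was the lowest array at 10 of the 38, and at 32.9% of all probes. Of 4 transglutaminase genes 0 passed. At the brightest probe Tgm3 had 0.40 ± 0.15 and Tgm2 -0.34 ± 0.16. With the tested probes of each gene averaged, these were 0.23 for Tgm3 and -0.33 for Tgm2. Tgm1, the enzyme of the envelope, had 0.16 ± 0.14 and Tgm5 0.11 ± 0.18, which was -0.11 without mutant 2.

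Of 24 genes that encode factors or cytokines described as acting on Sprr genes, 29 probes were tested and 0 passed the adjusted threshold. At an unadjusted p under 0.05, 4 were higher and 0 lower, where 3% of all probes were higher and 3.56% lower. Wild type 1 was the lowest array at 19 of the 29, and at 32.9% of all probes. Fosb stood at 0.64 and 0.17 in mutants 1 and 2, against -0.95 and -0.42 in wild types 1 and 2, with a log2 fold change of 1.10 ± 0.26. Fos, of which at least 1 spot lies in the corner named above, had 0.89 ± 0.13 (limma adjusted p = 0.442). Fosl1 had 0.71 ± 0.45 and the epithelial Ets factor Elf3 0.64 ± 0.44. Without wild type 1 these were 0.20 for Fosl1 and 0.20 for Elf3, while Fosl1 had 0.28 without mutant 1 and Elf3 0.18 without mutant 2. Fosb and Fos kept 0.83 and 0.79 without wild type 1. Klf4 (0.11 ± 0.16) and Nfe2l2, the gene of Nrf2 (0.28 ± 0.18), had smaller differences.

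The keratins of activated keratinocytes, like the Sprr genes, were lowest in wild type 1. Krt16 stood at 8.73 and 8.70 in mutants 1 and 2, against 7.70 and 8.45 in wild types 1 and 2, with a log2 fold change of 0.64 ± 0.27. Krt6a had 0.67 ± 0.30, Krt17 0.65 ± 0.18 and Krt6b 0.56 ± 0.25. Without wild type 1 the differences were 0.26 for Krt6a, 0.27 for Krt16, 0.23 for Krt6b and 0.45 for Krt17. At 5 of their 5 probes both mutants were above both wild types, as in 18.7% of all probes. Wild type 1 was the lowest at the same 5, and at 32.9% of all probes. None passed limma's adjusted threshold. Of the 5, 2 were higher at an unadjusted p under 0.05, where 3% of all probes were.

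The tissue was checked by markers. Keratinocyte, fibroblast, skeletal muscle, cartilage and immune markers were above background, as in a whole ear. In bulk tissue fewer cells of a type and less RNA per cell cannot be told apart. The summed linear level of 7 basal keratinocyte genes was 827 and 874 in mutants 1 and 2, against 740 and 858 in wild types 1 and 2. That of 5 suprabasal genes was 342 and 403 in the mutants, against 366 and 391 in the wild types. Both sums overlapped between the groups, and wild type 1 was the lowest in the basal one. Single probes did not all overlap. Both mutants were below both wild types at 4 of the 6 suprabasal probes and above both at 2. Of the 12 basal probes, 2 were below and 3 above in this way. Over all probes these shares were 17.6% below and 18.7% above. Krt15, a keratin of basal cells in that list, went the other way, with 5.03 and 5.28 in mutants 1 and 2, against 6.06 and 5.74 in wild types 1 and 2 (log2 fold change -0.74 ± 0.17, limma adjusted p = 0.588). The 9 Sprr genes summed to 242 and 258 in mutants 1 and 2, against 156 and 230 in wild types 1 and 2. A sum of linear levels, here and below, is weighted to the brightest probes and says little about the dim genes of its list. Those were Krt5 and Krt14 among the basal genes, Krt10 among the suprabasal ones and Sprr1a and Sprr1b among the Sprr genes.

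Markers of the inner root sheath and hair separated the samples in another order. The summed level of 10 such genes was 43.6 and 203 in mutants 1 and 2, against 34.7 and 23.1 in wild types 1 and 2. By this sum mutant 2 was far above the others. Most of the sum of wild type 2 is Krt85, at 4.25 there, so it hides how low the other genes were. The median level of the list was 0.66 and 3.39 in mutants 1 and 2, against 0.37 and -2.09 in wild types 1 and 2. Of its 13 probes 13 had a higher mutant mean, 8 had both mutants above both wild types and 1 had an unadjusted p under 0.05. Over all probes these shares were 52.6%, 18.7% and, for higher ones, 3%. The sum of 6 macrophage genes was 76.2 and 68.2 in the mutants, against 84.8 and 80.9 in the wild types, and 8 of its 10 probes had both mutants below both wild types. That of 5 sebaceous gland genes was 7.72 and 7.98 in the mutants, against 12.3 and 11.01 in the wild types. Both mutants were below both wild types at 5 of its 7 probes. Beside the macrophage and sebaceous counts, the share over all probes was 17.6%. Skeletal muscle (7 of 7 probes) and adipocyte markers (6 of 6) had lower mutant means, where 52.6% of all probes had a higher one. Both mutants were below both wild types at 1 of the 7 and 4 of the 6, beside the same 17.6%. Both of these lists had their lowest sum in mutant 2. The adipocyte sum was highest in mutant 1, at 41.9 against 38.3 and 40.5 in wild types 1 and 2. Of 9 neutrophil genes 7 were tested, and Ltf and Ngp were not above background on both arrays of either group. The 7 summed to 127 and 123 in the mutants, against 129 and 134 in the wild types. Most of that sum is Csf3r, at 6.91 and 6.85 in the mutants, against 6.93 and 6.98 in the wild types. The next brightest, Ly6g, lay between 2.08 and 2.44, so the sum says little about the genes other than Csf3r. The part of these lists in the Sprr values was not tested.

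**Figure D5:**
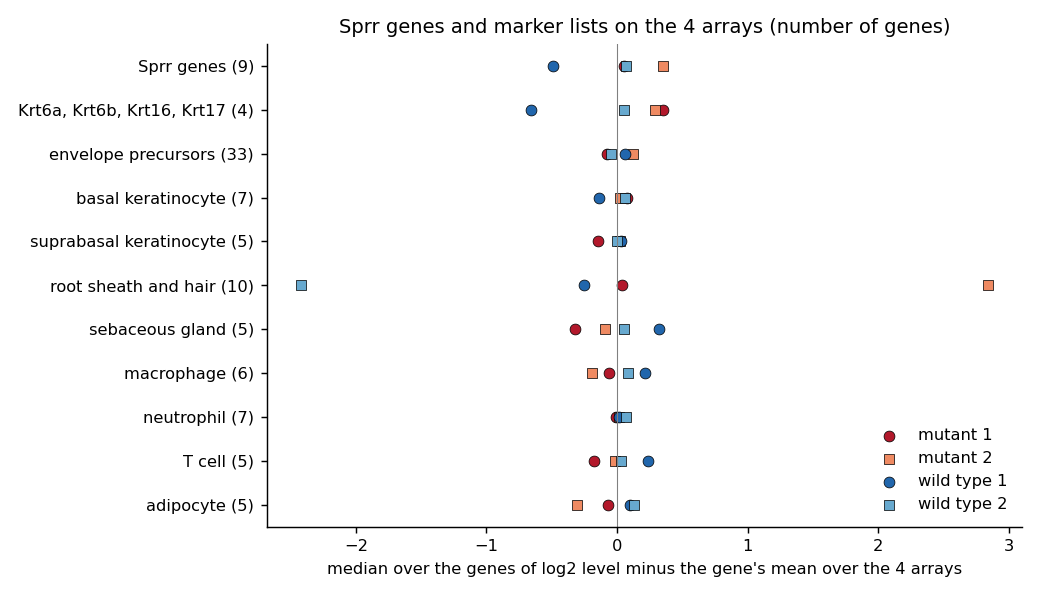
Median over the genes of a list of the log2 level minus the gene's mean over the 4 arrays (x axis), for the Sprr genes and marker lists (y axis, number of genes in brackets), 1 point per mouse. Wild type 1 lies at -0.49 for the Sprr genes and at -0.66 for the keratins, while the root sheath and hair list spreads from -2.42 in wild type 2 to 2.84 in mutant 2.

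The targeted gene itself had a level of 4.59 and 4.72 in mutants 1 and 2, against 4.48 and 4.601 in wild types 1 and 2, with a log2 fold change of 0.11 ± 0.12. Which exons were floxed is not in the labels, and a probe that lies elsewhere in the gene would not check the deletion. The Rela spot also lies in the corner named above.

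Genes with the most similar values were sought among 14511 genes with a full symbol, by the Euclidean distance between a gene's 4 levels, each minus its mean, and the mean profile of the 9 Sprr genes. The 6 closest were B3galt5, Olfr635, Epb4.1l3, Sox7, Lrrc40 and Nol10, with distances from 0.041 to 0.091. The Sprr genes themselves lay between 0.078 (Sprr2h) and 0.796 (Sprr2b) from that mean. The log2 fold changes of the 6 were between 0.45 and 0.53. B3galt5, Olfr635, Lrrc40 and Nol10 were dim, and with normexp background correction they had 0.245, 0.21, 0.193 and 0.295. Epb4.1l3 and Sox7 had 0.434 and 0.496 with that correction. With 4 values per gene, many genes lie close to any profile.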

How the data were processed

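Total RNA (100 ng per ear) of 4 mice was labelled with Cy3 and hybridised to 4 one-colour Agilent arrays of 1 slide. Per the file headers, the authors' deposited processed intensities are the output of Agilent Feature Extraction (version 10.7.3.1), with a fitted background subtracted, a spatial trend corrected and surrogates in place of dim spots, without scaling between arrays. Raw mean and local background intensities are deposited uncorrected, per the file headers, and the deposited flags score spots as 0 or 1 for background, saturation and outliers, per the file headers. The authors' series table holds, as deposited, the linear ratio of processed intensity to the array median, found from the values (largest log2 difference 1.46e-05).

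The 3671 control spots and flagged outlier spots (93 and 194 in mutants 1 and 2, 98 and 101 in wild types 1 and 2) were left out. On the log2 scale the array's 75th percentile (589 to 664 as an intensity) was subtracted and spots of a probe were averaged. The 33664 tested probes went into 1 fit (lmFit, eBayes, two-sided) in limma 3.58.1 under R 4.3.3, with 2 residual and 2.55 prior degrees of freedom, and Benjamini-Hochberg adjustment ran over these probes. The fit was tested on simulated data. Errors are limma's moderated standard errors. Sequences were compared with biopython 1.88 and figures drawn with matplotlib 3.10.9 in python 3.11.15. The members and lists were chosen with earlier results of these data known. Named genes are the members, other Sprr names, the 6 most similar genes and Rela. Up to 4 genes with the largest difference of each list of partners are also named. Lor, Ivl, the Lce3 genes, Klf4, Nfe2l2 and Krt15 were named after their values were seen. The brightest genes of the basal, suprabasal and neutrophil lists were also named after their values were seen. The replicate numbers are shared by both groups without a stated meaning, so no pairing entered the fit.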

Additional observations from a re-analysis of the deposited data

How the results depend on the processing

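Under 18 alternatives 0 Sprr probes passed the adjusted threshold (smallest adjusted p = 0.208), and the median log2 fold change of the 9 genes stayed between 0.14 and 0.70, with 0.14 without wild type 1. Sprr2b ranged from 0.86 to 1.59 and Sprr2d from 0.78 to 1.22 over the 18. The number of Sprr genes with both mutants above both wild types was 3, and between 2 and 4 under the alternatives that kept all arrays. In the main fit 18.7% of all probes were so ordered, and this share was not computed for the alternatives. With 1 array left out, 1 sample stands against 2 and the groups part more easily by construction, so no such count is given.

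Values that turned round were small. With 1 array left out, Sprr4 lay between -0.10 (without wild type 1) and 0.16 and had -0.08 without mutant 2. Sprr1a lay between -0.040 (without wild type 1) and 0.48, Tgm5 between -0.11 (without mutant 2) and 0.33, and the third Sprr2a2 probe between -0.014 (without wild type 1) and 0.039. That probe also had -0.045 with quantile normalization and -0.0011 when the percentile was taken from probes that all arrays had above background.

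The count over all probes was less stable than the Sprr values. It was 7, against 1 with no filter on dim probes, 2 among probes above background on all 4 arrays, 4 with the brightest probe per gene and 35 with eBayes with trend and robust. With 1 array left out the count lay between 0 and 162, the 162 without mutant 1. The count was 1 with the replicate block and 1 with the crossed replicate block. The crossed block was added after seeing the data because same-numbered samples deviated in opposite directions over all probes tested (r = -0.159). The Sprr genes went the other way: except at Sprr1b, replicate 2 was above replicate 1 in both groups. With either block 0 Sprr probes were called. The number of Sprr genes with an unadjusted p under 0.05 was 2, but 5 with the replicate block. Over all probes it was 2207 of 33664, and 2031 with that block. The cause of these changes was not tested. Without replicate numbers of known meaning, a call lost under the block is not a weaker effect.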
